A study of Mus musculus with 2 samples.

Results

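Long intergenic noncoding RNAs (lincRNAs) were examined in the left cerebral cortex of the mouse, leaving out a set of well-known ones by name. A gene was taken when any of its transcripts was typed lincRNA in the annotation and its deposited level was at least 3 TPM in both libraries, TPM being a transcript's share of all transcripts, scaled for length. Malat1, Neat1, Miat, Meg3, Rian, Mirg, Pantr1, H19, Peg13 and symbols beginning Snhg were left out. Of 55536 annotated genes, 6058 had a lincRNA transcript, 149 of these passed the level and 135 remained after 14 were left out by name. The genes were thus chosen by their TPM in these same libraries, and the levels below are a description. Total RNA was sequenced from 2 adult female B6CASTF1/J mice of 8 to 10 months, the F1 hybrid of C57BL/6J and CAST/EiJ, with 1 library per animal. Both animals were untreated as far as the labels say and form 1 group. Replicate 2 is animal 5 and replicate 1 is animal 1, and each library was built from 300 ng of ribosome-reduced RNA with ERCC spike-ins, which are synthetic transcripts. Since the labels carry 1 donor entry for both, only the animal numbers set them apart, and the spread between them may be partly technical.

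LincRNAs are transcribed by RNA polymerase II, usually capped and often spliced, from loci that lie apart from protein-coding genes, and most are kept at low levels and in the nucleus. Some act in place on neighbouring genes, as Xist does when it coats and silences an X chromosome. Others carry binding sites in tandem for a protein or a microRNA (miRNA), and still others are the primary transcripts from which miRNAs are cut. In cortex, the loci of miR-9 and miR-124, which promote and maintain neuronal identity, give rise to such host transcripts.

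The sequences through which several of the RNAs are known to act are shown first, read from GENCODE M21 transcripts unless credited otherwise. In the main transcript of C230004F18Rik (Cdr1os in RefSeq, on chromosome X), the 7-letter match to the seed of miR-7 recurs in tandem. A stretch of 150 bases, transcript positions 791 to 940, holds 9 matches in capitals, and below it stand the site of 1700020I14Rik (Oip5os1, also called Cyrano) and miR-7a-5p from RefSeq (GRCm38.p6). The Oip5os1 site lies at transcript positions 2934 to 2959 of the gene on chromosome 2, and its capitals are 19 bases that can pair with miR-7a-5p. The alignment left out the first base of the miRNA and fixed those next to the seed, so lower-case bases may pair too. In the miRNA the capitals are the seed, bases 2 to 8.
Cdr1os stretch: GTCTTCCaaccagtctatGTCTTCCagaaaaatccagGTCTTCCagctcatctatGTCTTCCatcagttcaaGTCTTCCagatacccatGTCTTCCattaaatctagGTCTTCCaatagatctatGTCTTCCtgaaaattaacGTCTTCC
Oip5os1 site: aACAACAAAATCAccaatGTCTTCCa
mmu-miR-7a-5p: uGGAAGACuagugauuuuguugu

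The transcript of 2900097C17Rik (Norad in RefSeq, on chromosome 2) carries the motif TGTANATA, to which Pumilio proteins bind. The first, the fourth and the tenth match in the transcript are shown with the motif in capitals, followed by the whole Bc1 transcript (chr7:144914470-144914637, plus strand), a short neuronal RNA of dendrites that regulates translation.
Norad motif 1: tagaagtcctgTGTATATAatatgaaaaag
Norad motif 4: actgactgctgTGTATATAgtggacaacag
Norad motif 10: cagtactactaTGTATATAggggacaaatt
Bc1: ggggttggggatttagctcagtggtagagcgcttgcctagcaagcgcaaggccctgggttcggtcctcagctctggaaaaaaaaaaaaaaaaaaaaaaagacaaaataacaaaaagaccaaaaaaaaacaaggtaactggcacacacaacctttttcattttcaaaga

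Mature miRNAs whose genes lie inside or beside lincRNAs described below are given with their seeds in capitals, from RefSeq (GRCm38.p6). The arms of miR-29 share the seed AGCACCA, those of let-7 share GAGGUAG, miR-99a and miR-100 share ACCCGUA, and miR-15a and miR-16 share AGCAGCA.
mmu-miR-9-5p: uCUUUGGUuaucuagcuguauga
mmu-miR-29a-3p: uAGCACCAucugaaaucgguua
mmu-miR-29b-3p: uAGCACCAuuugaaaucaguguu
mmu-miR-29c-3p: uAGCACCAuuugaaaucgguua
mmu-let-7b-5p: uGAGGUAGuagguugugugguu
mmu-let-7c-5p: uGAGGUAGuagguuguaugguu
mmu-miR-99a-5p: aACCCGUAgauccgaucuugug
mmu-miR-100-5p: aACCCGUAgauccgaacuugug
mmu-miR-125b-5p: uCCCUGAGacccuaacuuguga
mmu-miR-15a-5p: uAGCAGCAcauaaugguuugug
mmu-miR-16-5p: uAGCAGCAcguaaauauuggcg
mmu-miR-137-3p: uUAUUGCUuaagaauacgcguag
mmu-miR-138-5p: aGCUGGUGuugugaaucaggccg

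The gene tables held 30234441 expected counts in replicate 2 and 28327434 in replicate 1, of which the 135 lincRNA genes took 2.89% and 2.82%. Markers of cortical neurons were high in both libraries, with Snap25, a synaptic vesicle fusion protein, at 1367 and 1258 TPM and Slc17a7, the vesicular glutamate transporter of excitatory neurons, at 488 and 452 TPM. Markers of striatum summed to 392 TPM in replicate 2 against 357 TPM in replicate 1. Markers of cerebellum summed to 0.32 and 0.04 TPM. The choroid plexus markers Ttr, Kl and Folr1 were all lower in replicate 2, with a summed level of 57.9 TPM against 176.9 TPM in replicate 1, and the heart muscle marker Myh6 stood at 2.52 and 7.06 TPM. In bulk tissue, fewer cells of a type and less RNA per cell cannot be told apart. The labels mention no molecular identifiers, so the counting errors given below cover counting only.

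Levels spanned more than 3 orders of magnitude and were concentrated in a few genes. Over the 135 genes the median of the mean TPM was 8.02, with quartiles of 5.30 and 18.1, against a median of 19.6 over all 12151 genes at 3 TPM or more in both libraries and 20.2 over the 11330 protein-coding ones. Of the 135, 4 averaged at least 1000 TPM, 6 at least 100, 22 at least 30 and 52 at least 10, and the other 83 averaged under 10. Together they took 1.95% of all TPM in replicate 2 and 1.93% in replicate 1. The 5 highest held 89.0% of this sum in replicate 2 and 90.3% in replicate 1. Most of the 135 carry database labels in place of names, with 51 symbols that end in Rik, 51 that are Gm numbers and 7 that are contig names, which leaves 26 with other names. They lie on 20 chromosomes, with at most 13 on one of them, chromosome 5.

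**Figure D1:**
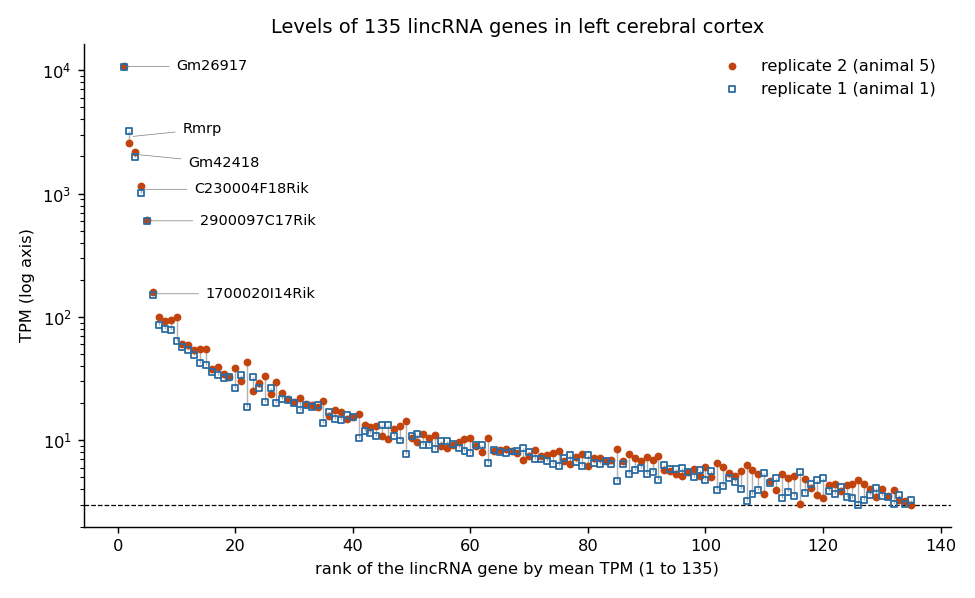
TPM of each of the 135 lincRNA genes (log axis) against its rank by mean TPM, with filled circles for replicate 2, open squares for replicate 1 and a dashed line at 3 TPM. The 6 named genes average at least 100 TPM, from Gm26917 at 10744 TPM to 1700020I14Rik at 154 TPM, and 83 genes lie under 10 TPM.

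Between 30 and 100 TPM the list mixes host transcripts, described below, with little known loci. Gm48623 on chromosome 13 had 54.3 TPM in replicate 2 against 48.8 TPM in replicate 1, and 1500004A13Rik on chromosome 3 had 54.5 and 42.3 TPM, with 53.0% of its 31-letter words found in other annotated genes. Gm10419 on chromosome 5 had 55.1 and 41.0 TPM. Tmem250-ps, a pseudogene by its name, stood at 32.33 TPM in both libraries, and B230209E15Rik on chromosome 7 at 30.4 and 33.9 TPM. Of these genes, 1500004A13Rik and Gm10419 had credibility intervals that were apart between the libraries. Those intervals are the authors', computed per library, and cover the uncertainty of the quantification.

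Most of these genes lay within 1.2-fold between the animals, as did most genes in general. Where lincRNAs with enough counts differed by 1.5-fold or more, replicate 2 was the higher. A log2 difference is given here for log2 CPM (counts per TMM-scaled library size, prior count 1), replicate 2 minus replicate 1, and only where the counts averaged 50 or more, as in 123 of the 135. Of these, 8 were at least 1.5-fold higher in replicate 2 (6.50%), against 3.70% of all 14122 genes with such counts. None was at least 1.5-fold lower, against 2.34% of all genes. The 8 all lay among the 100 lincRNAs with a mean of 50 to 1000 counts (8.00%), and over all genes of that depth the shares were 5.63% higher and 3.06% lower. The median log2 difference was 0.05 over the lincRNAs and -0.02 over all genes, 73 of the 123 were above 0 against 45.6% of all genes, and 86 lay within 1.2-fold (69.9%, against 72.6% of all genes). Their median counting SE, from Poisson counts, was 0.12, against 0.08 over all genes with such counts. By the deposited credibility intervals of TPM, whose level is not stated, the libraries were apart at 30 of the 135 (22.2%), against 20.2% of all genes at 3 TPM or more. At 27 of these replicate 2 was the higher, as at 1699 of the 12151 genes, and at 3 it was the lower (2.22% of the 135, against 6.25%). With 1 group of 2 animals there is no test of these differences.

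**Figure D2:**
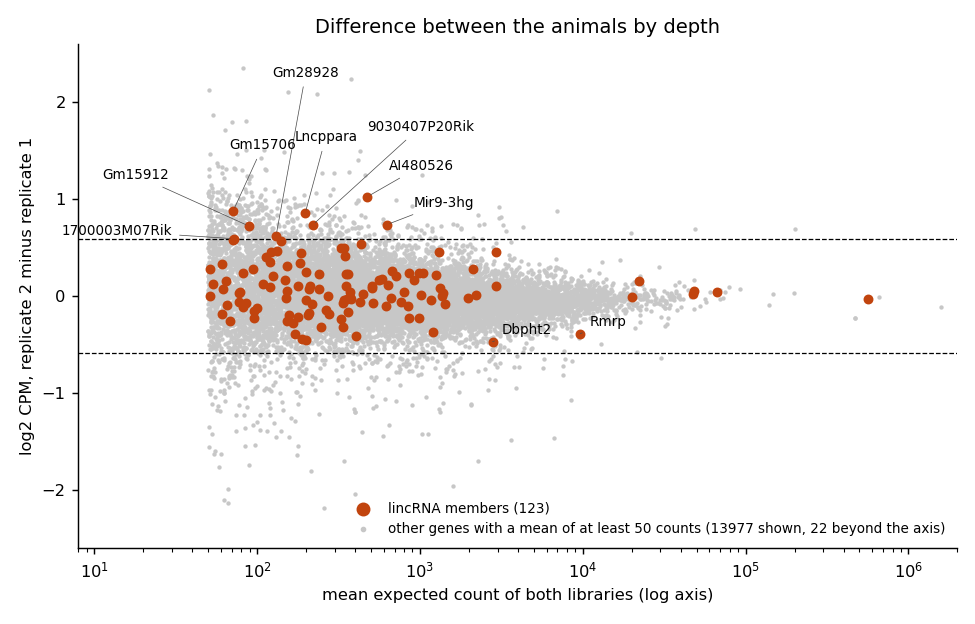
Log2 difference, replicate 2 minus replicate 1, against the mean expected count (log axis) for the 123 measured lincRNAs in orange and other genes in grey, with dashed lines at 1.5-fold either way. The 8 named lincRNAs above the upper line lie between AI480526 at 1.02 and 1700003M07Rik at 0.59, none lies below the lower line, and Dbpht2 is the lowest at -0.47.

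AI480526 showed the largest difference. It had 656 counts in replicate 2 and 293 in replicate 1, at 43.5 and 18.7 TPM, a log2 difference of 1.02 with a counting SE of 0.10. Of the 31-letter words of its main transcript, matched on either strand, 86.3% also occur in 4932422M17Rik and none in other annotated genes. The exons of 4932422M17Rik overlap those of AI480526 on the opposite strand, and it had 9 and 7 counts. Lncppara, whose exons hold the genes of let-7b and let-7c-2, had 263 and 132 counts, 14.3 and 7.69 TPM and a difference of 0.85 ± 0.15 (counting SE). Mir9-3hg, the host of the third miR-9 locus, had 808 and 441 counts, at 33.0 and 20.4 TPM, and a difference of 0.74 ± 0.09. In each of these genes the credibility intervals of the libraries did not overlap.

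Another 5 lincRNAs were past 1.5-fold. 9030407P20Rik had 284 counts in replicate 2 and 155 in replicate 1, Gm28928 165 and 97, and Gm15912 115 and 63. Gm15706 had 96 and 47 counts, and 1700003M07Rik 90 and 54. Their log2 differences were 0.73, 0.62, 0.72, 0.88 and 0.59, with counting SEs of 0.14, 0.18, 0.23, 0.26 and 0.25 in the same order. The credibility intervals of Gm15912 and of 1700003M07Rik overlapped between the libraries. Just inside 1.5-fold were Gm12371 at 0.58 and Gm47204 at 0.57.

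At the other end the differences were smaller. Dbpht2 had 2473 counts in replicate 2 and 3116 in replicate 1, at 25.02 and 32.77 TPM, and the lowest difference, -0.47 ± 0.04. Gm46430, Dubr, Gm43597, Gm5165, Rmrp, AI504432, Gm26945, Gm2824 and AC164314.1 completed the 10 lowest, between -0.45 and -0.27. Of these 10, the credibility intervals of Dbpht2, Rmrp and AI504432 did not overlap. Several abundant nuclear RNAs that the choice of genes left out were also higher in replicate 2. Malat1 stood at 4776 TPM in replicate 2 against 2936 TPM in replicate 1, Meg3 at 1010 and 624 TPM, and Miat at 85.3 and 38.4 TPM. Their part in the differences of the lincRNAs, like that of the choroid plexus and heart markers, was not tested. Scaled to the spike-ins in place of TMM, the median log2 difference of all genes moved up by 0.28, to 0.25. On that scale 114 of the 123 lincRNAs were above 0, so most of the small negative differences given here change sign with it, the lowest was Dbpht2 at -0.19, and 23 were at least 1.5-fold higher, against 11.6% of all genes.

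The highest lincRNA annotation lay beside an annotation of ribosomal RNA sequence. Gm26917 (chr17:39843013-39846341, plus strand, mm10) had 584336 counts in replicate 2 and 544543 in replicate 1, at 10839 and 10649 TPM, or 55.6% and 55.1% of the summed TPM of the 135 genes. Gm42418, 616 bases downstream on the same strand, had 2169 and 1991 TPM. RefSeq lists Gm42418 as Rn18s-rs5, and 96.3% of its 31-letter words occur in CT010467.1, an annotated rRNA on the opposite strand that had 93 and 52 counts. Gm26917 itself shared 0% of its words with other annotated genes and matched no RefSeq name. It is grouped with the rRNA region by its place, and whether its reads are of rRNA was not tested. Log2 differences were -0.04 for Gm26917 and 0.04 for Gm42418, and with library totals or spike-ins in place of TMM the first was 0.01 or 0.24. Without these annotations the lincRNAs took 0.649% of all TPM in replicate 2 and 0.669% in replicate 1. Of the 5 rRNA-region annotations looked up, AY036118 had 0 counts in both libraries and Gm15564 2 in each.

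Rmrp, the RNA of the RNase MRP ribozyme that processes ribosomal RNA precursors, stood second. Unlike most lincRNAs it is made by RNA polymerase III, as is Bc1. The annotation holds it under a pair of gene IDs at the same place on chromosome 4, one typed lincRNA and one typed ribozyme, that share 96.0% of their 31-letter words. The lincRNA ID had 8819 counts in replicate 2 and 10495 in replicate 1, at 2584 and 3196 TPM, a difference of -0.39 ± 0.02 (counting SE). The ribozyme ID went the other way, with 6089 and 4628 counts and a difference of 0.26. Summed over both IDs the counts were 14908 and 15123, and the difference was -0.16 ± 0.02. The IDs had opposite signs, and no source used here says how reads were divided between them.

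Cdr1os was the highest of the longer lincRNAs outside the rRNA region. It had 51113 counts in replicate 2 and 44811 in replicate 1, at 1154 and 1013 TPM, a difference of 0.05 ± 0.01 (counting SE). Its locus (chrX:61116378-61292484, plus strand) is known as the source of the circular RNA Cdr1as, a neuronal RNA that binds miR-7. Linear and circular products cannot be told apart in these tables, and no value is given for the circle. Of 11 annotated transcripts, ENSMUST00000231449.1 held 64.5% and 65.9% of the gene's TPM, and a short one of 477 bases held 33.5% and 31.7%. The first, of 3354 bases, has 123 matches to GTCTTCC on its own strand, 36.7 per kb, and its exons cover 1554 bases of Cdr1 on the other strand. Among the 10280 main transcripts of at least 1000 bases, from genes at 3 TPM or more, no other had as many matches or as many per kb, while 27.4% of these transcripts had at least 1. Cdr1, the protein-coding annotation on the other strand, had 0 counts in replicate 2 and 1 in replicate 1.

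Norad, which holds Pumilio proteins in the cytoplasm and guards chromosome stability, was the next highest. It had 50162 counts in replicate 2 and 44847 in replicate 1, at 607 and 597 TPM, a difference of 0.02 ± 0.01 (counting SE). Its 4915-base transcript has 11 matches to TGTANATA on its own strand, and only 2 of the 10280 transcripts, its own included, had as many, while 30.8% had at least 1. Gm7292 on chromosome 6 shares 86.6% of its 31-letter words with other genes, chiefly Norad, and its 2527-base transcript has 9 matches. Gm7292 stood at 59.7 TPM in replicate 2 against 54.3 TPM in replicate 1, and since its reads resemble those of Norad, that level is uncertain. Summed over both genes the difference was 0.02.

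Oip5os1, the RNA with a near-perfect miR-7 site that directs the decay of miR-7, was the last above 100 TPM on average. It had 21030 counts in replicate 2 and 19191 in replicate 1, at 159 and 149 TPM, and its log2 difference of -0.00 was within counting error. Its 8300-base transcript, which holds the site shown, carried 82.9% of the gene's TPM in replicate 2 and 83.8% in replicate 1.

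Of the 4 genes of the X inactivation centre that were listed, 3 were among the lincRNAs. Xist, which coats the inactive X chromosome in cis, had 24516 counts in replicate 2 and 20010 in replicate 1, at 94.2 and 78.2 TPM, a difference of 0.16 ± 0.01 (counting SE). Ftx, an activator of Xist, stood at 16.97 and 14.73 TPM with a difference of 0.16, and Jpx, which relieves repression of Xist, at 7.32 and 5.34 TPM with a difference of 0.34 ± 0.15. All 3 were higher in replicate 2 by less than 1.5-fold, and the 3 genes lie within chrX:103460366-103623790. Tsix, the antisense repressor of Xist, is not typed lincRNA and had 43 and 5.47 counts. Its exons overlap those of Xist, and no source used here gives the use of strand in counting. Whether counting kept reads over the shared exons apart by strand was not tested.

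Of 14 symbols listed as nuclear or chromatin-linked RNAs, 5 matched members: Norad, Gas5, Lncpint, Pvt1 and Dleu2. The 14 held Norad under both of its symbols, although its role given above is in the cytoplasm. They also held Oip5os1, a member that was matched only under its other symbol, in the next list. None of the 5 was past 1.5-fold, and their median difference was 0.05. Gas5, a host of snoRNAs whose human counterpart binds the glucocorticoid receptor, had 100.3 TPM in replicate 2 against 85.6 TPM in replicate 1, a difference of 0.24 ± 0.07 (counting SE). Lncpint, a p53-induced RNA linked to Polycomb, stood at 60.6 and 56.8 TPM. Pvt1, the neighbour of Myc, had 12.8 and 11.4 TPM, and Dleu2, the host of miR-15a and miR-16-1, 8.71 and 9.91 TPM. Among the listed genes that were not members, Tug1 and Firre are typed otherwise and had 55.2 and 54.6 TPM, and 15.3 and 11.5 TPM. Crnde and Trp53cor1 do have a lincRNA transcript and stayed under 3 TPM, with 0.52 and 1.30 TPM, and 0.03 and 0.12 TPM.

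Of 14 listed RNAs of neural development, 3 were members: Oip5os1, Rmst and Gm26871. Rmst, a partner of SOX2 in human neural cells, had 21.9 TPM in replicate 2 against 17.5 TPM in replicate 1, and 67.1% of its 31-letter words are shared with other annotated genes, several of them short misc_RNA entries inside it. Gm26871, which spans the miR-137 gene, had 15.5 and 15.3 TPM. Neither differed by more than 1.5-fold, with values of 0.04 and -0.18. Pantr2, Lhx1os and Lncenc1, which also have a lincRNA transcript, stayed under 3 TPM in both libraries.

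Genes that hold or lie beside a miRNA gene, called hosts here, formed a larger group, defined by position alone. Whether miRNAs are cut from their transcripts was not tested. A miRNA gene on the same strand lay inside 24 of the 135 genes and within 1 kb of 3 more, 53 miRNA genes in all. The median of their mean TPM was 11.7. Of the 25 with at least 50 counts on average, 17 were higher in replicate 2, 2 by at least 1.5-fold (Lncppara and Mir9-3hg) and none was 1.5-fold lower, with a median of 0.05. Over all genes 45.6% were above 0, 3.70% were 1.5-fold higher and 2.34% were 1.5-fold lower, and over all 123 measured lincRNAs 59.3% were above 0 and 6.50% were 1.5-fold higher. The libraries do not report the miRNAs themselves, and of their genes only Gm24155, near Mir137, held any count, 1 in replicate 2 and 2 in replicate 1.

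**Figure D3:**
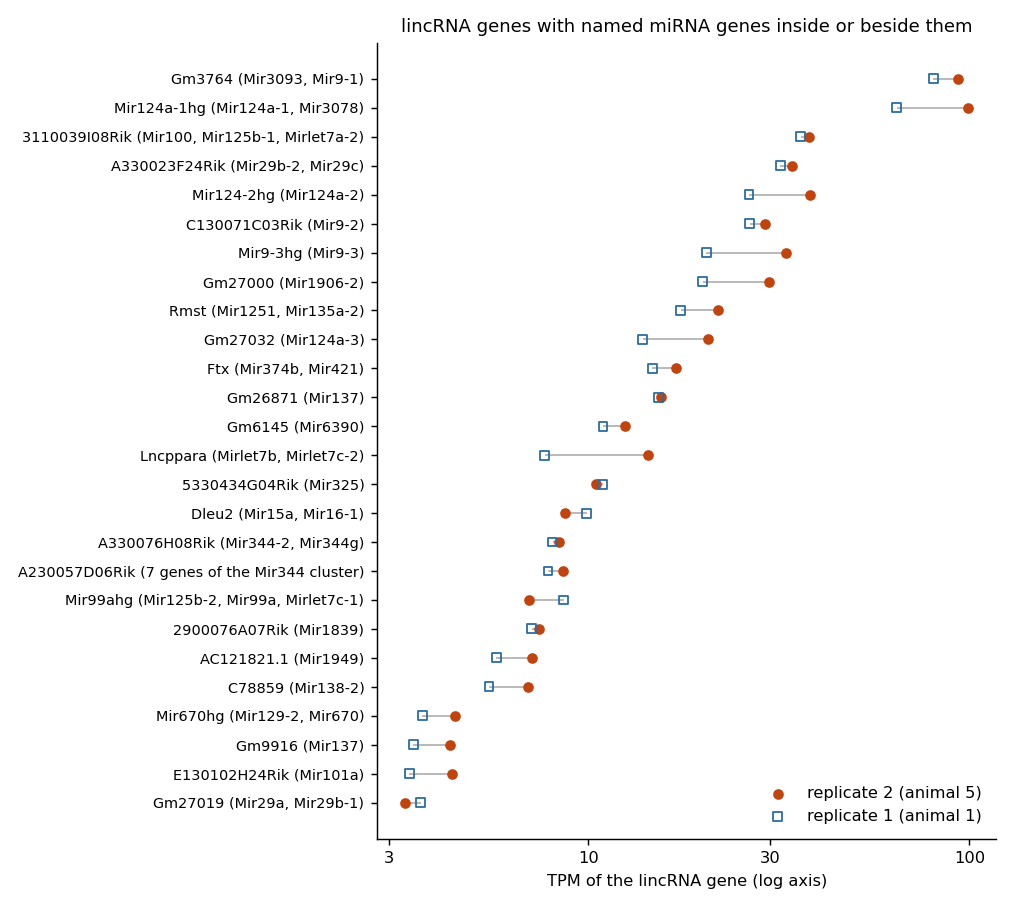
TPM (log axis) of the 26 lincRNA genes with a named miRNA gene inside or beside them, with filled circles for replicate 2 and open squares for replicate 1, and the miRNA genes in brackets. Gm3764 and Mir124a-1hg are the highest on average at 86.9 and 81.9 TPM, and Lncppara has the widest ratio, with 14.3 TPM in replicate 2 against 7.69 TPM in replicate 1.

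The hosts of all 3 miR-9 loci were among the lincRNAs, as were genes at all 3 miR-124 loci. For miR-9, Gm3764 (Mir9-1, in an intron) had 93.4 TPM in replicate 2 against 80.4 TPM in replicate 1, Mir9-3hg (Mir9-3, in an intron) 33.0 and 20.4 TPM, and C130071C03Rik (Mir9-2, in an exon) 29.1 and 26.5 TPM. The differences of these hosts were 0.22, 0.74 and -0.00, with counting SEs of 0.06, 0.09 and 0.06. For miR-124, Mir124a-1hg had 99.3 TPM in replicate 2 against 64.5 TPM in replicate 1, and Mir124-2hg 38.2 and 26.4 TPM. Gm27032, which overlaps only the last bases of Mir124a-3 and does not contain it, had 20.7 and 13.9 TPM. These 3 differed by 0.45, 0.45 and 0.49, with counting SEs of 0.04, 0.06 and 0.12, and each had credibility intervals apart. On this scale all 3 stayed under 1.5-fold. With spike-in scaling, which moves the differences of all genes up, all 3 were past it, Mir124a-1hg and Mir124-2hg each at 0.73. On that scale 11.6% of all genes were at least 1.5-fold higher.

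Other hosts belong to families of shared seeds. 3110039I08Rik (Mir100hg in RefSeq), which holds miR-100, let-7a-2 and miR-125b-1, had 38.0 TPM in replicate 2 against 36.1 TPM in replicate 1, and Mir99ahg, with the paralogous miR-99a, let-7c-1 and miR-125b-2, had 6.97 and 8.62 TPM. A330023F24Rik, with miR-29b-2 and miR-29c in its exons, had 34.3 and 31.9 TPM, while Gm27019 beside the other miR-29 pair had 3.31 and 3.63 TPM from 19 and 20 counts. Gm9916 lies beside the miR-137 gene and inside the span of Gm26871, and had 4.33 and 3.47 TPM. C78859, with miR-138-2 in an exon, had 6.96 and 5.49 TPM and a difference of 0.26 ± 0.08 (counting SE). A230057D06Rik and A330076H08Rik lie 1446 bases apart on chromosome 7 over the miR-344 cluster, at 8.56 and 7.84 TPM and at 8.40 and 8.06 TPM.

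As genes, the lincRNAs were short in exons. The main transcript had a median of 2 exons against 8 over all genes at 3 TPM or more, and was a single exon in 33 of the 135 (24.4%) against 7.11% of all. Their median length was 1661 bases against 2453. In 50 of the 135 (37.0%), 1 transcript held at least 90% of the gene's TPM in both libraries, against 24.6% of all genes. Genes with only 1 annotated transcript pass this by definition. They were 41 of the 135 (30.4%), against 1531 of all genes at 3 TPM or more (12.6%). The 37.0% and 24.6% include them, so these shares do not compare transcript use. Reads of some cannot be told from those of other genes. The 31-letter words were matched on either strand. At least 50% of them were shared with other annotated genes in 17 of the 135 and under 5% in 80. Exons of a gene on the opposite strand are overlapped by 35, and of one on the same strand by 37. Gm27000 on chromosome X, for example, shares 96.2% of its words with other genes, chiefly Meg3, and its 29.88 TPM in replicate 2 against 19.98 TPM in replicate 1 cannot be told from reads of Meg3. Of the 8 genes past 1.5-fold, 4 share under 5%.

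The levels also depended on which deposited table was read. The first table has the layout that RSEM writes, and the second, the layout of kallisto. The mean TPM differed at least 2-fold between them in 11 of the 135 (8.15%), against 3.11% of all genes at 3 TPM or more and 0.591% of the protein-coding ones. AC121821.1 on chromosome 18 was highest in the second table relative to the first, with 107.4 TPM in replicate 2 and 98.4 in replicate 1, against 7.13 and 5.73 TPM in the first table. Its exons contain Snora74a, a small nucleolar RNA that had 587 and 550.1 TPM in the first table and 0 in the second. Gm43305 had 61.3 and 60.9 TPM in the second table and 13.25 and 11.96 TPM in the first. Rmrp had 5609 and 6025 TPM in the second table, where the ribozyme ID had 0.

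Another 3 lincRNAs were listed at 0 in the second table. Bc1 had 50 counts in replicate 2 and 42 in replicate 1, at 38.99 and 34.04 TPM in the first table, with an effective length of 68 bases. Gm49207, with 17.6 and 14.9 TPM in the first table, shares 83.1% of its words with Ahsa1, a cochaperone gene, and Gm10076, with 11.1 and 8.46 TPM, shares 82.2% with Rpl41, a ribosomal protein gene. Lower in the second table but above 0 were 1700026F02Rik, Gm49749, Gm9989 and Gm39469. Gm49749 lies wholly within exons of Pcnx and had 14.91 and 16.04 TPM in the first table and 3.38 and 3.26 TPM in the second. Gm46430, with 15.08 and 15.04 TPM in the second table and 6.22 and 7.59 TPM in the first, was the fourth that was at least 2-fold higher in the second.

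**Figure D4:**
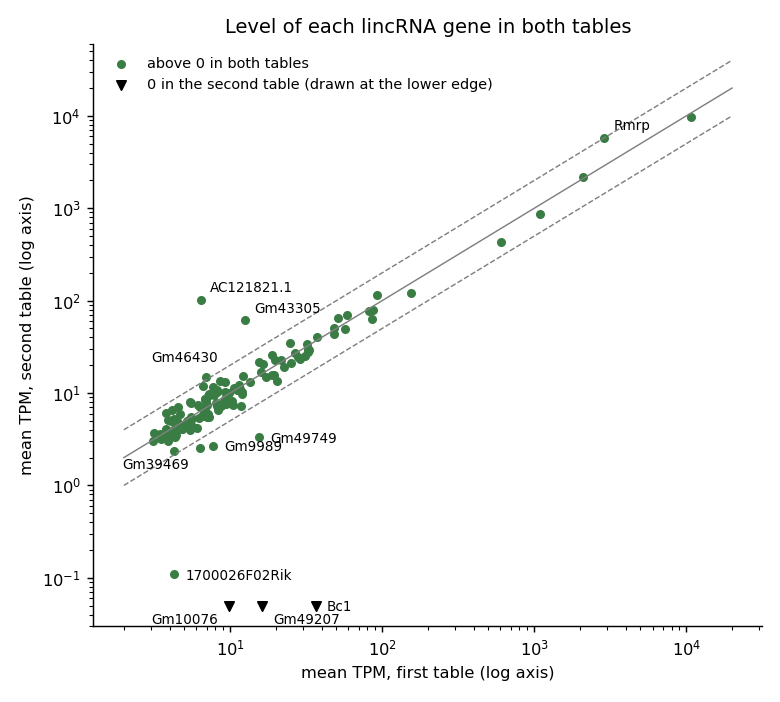
Mean TPM of each of the 135 lincRNA genes in the second table against the first (log axes), with a solid line at equality, dashed lines at 2-fold and triangles at the lower edge for the 3 genes at 0 in the second table. AC121821.1 (102.9 TPM in the second table, 6.43 TPM in the first) and Gm43305 (61.1 and 12.6 TPM) lie farthest above the lines, and 1700026F02Rik lies farthest below among genes above 0.

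Some lincRNAs started close to a protein-coding gene that is read in the other direction. In 30 of the 135 the start lay within 5 kb of the start of such a gene, and in 23 within 1 kb. The same share was not taken over all genes, so these counts are a description. The partner had the higher TPM in 23 of the 30 pairs, with a median of 29.1 TPM for the partners and 5.30 TPM for the lincRNAs. Both genes had at least 50 counts in 27 pairs. There, the median log2 difference was 0.24 for the lincRNAs and -0.02 for the partners, and 14 pairs had the same sign. No partner differed by 1.5-fold, against 3.70% of all genes higher and 2.34% lower by that fold. Those shares are not matched for depth. Most partners averaged over 1000 counts, while 492 of the 523 genes 1.5-fold higher and 268 of the 331 lower averaged under 1000. Across these pairs Pearson's r was 0.13 and Spearman's rho 0.11, as a description over genes of the same 2 libraries.

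Several pairs are given with the difference of each gene. AI480526, at 1.02, starts 527 bases from Setd1b, a histone H3K4 methyltransferase, which differed by -0.08. 9030407P20Rik, at 0.73, starts 48 bases from Mosmo, a regulator of Smoothened, which differed by 0.17. Gm15912, at 0.72, starts 53 bases from Tppp, a tubulin-binding protein of oligodendrocytes, which differed by -0.07. Gas5, at 0.24, starts 427 bases from Zbtb37, which differed by -0.03.

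Other partners include genes of neuronal adhesion and chromatin. 4632404H12Rik, with 7.78 TPM in replicate 2 against 5.33 TPM in replicate 1 and a difference of 0.53 ± 0.10 (counting SE), starts 376 bases from Ube2q1, a ubiquitin-conjugating enzyme at 39.3 and 37.0 TPM. 4930570G19Rik, at 0.23, starts 48 bases from Negr1, a neuronal adhesion molecule at 92.3 and 93.2 TPM, and Gm15631, at 0.07, starts 79 bases from Cntn4, another at 29.4 and 25.4 TPM. 5031425E22Rik, at 0.41, starts 172 bases from Kmt2e, a chromatin regulator that itself differed by 0.23. In the pair of 2810032G03Rik and Klhl29 the partner differed by -0.48, the lowest of the partners, and the lincRNA by -0.17.

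1810026B05Rik (Chaserr), which restrains its neighbour Chd2 in cis, overlaps annotated exons of Chd2 on the same strand. Chaserr had 15.8 TPM in replicate 2 against 16.9 TPM in replicate 1, with a difference of -0.03, and Chd2, a chromatin remodeller, had 24.6 and 25.6 TPM, with a difference of -0.35.

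**Figure D5:**
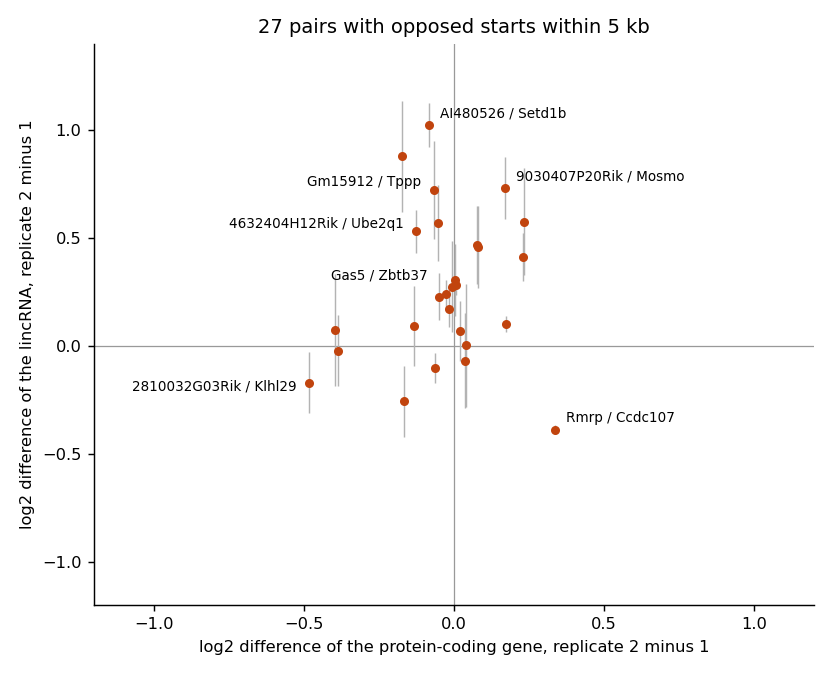
Log2 difference (replicate 2 minus replicate 1) of the lincRNA, with its counting SE as a bar, against that of the protein-coding gene whose opposed start lies within 5 kb, for the 27 pairs with at least 50 counts in both. The lincRNAs reach 1.02, while the protein-coding genes lie between -0.48 and 0.34.

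Promoter sequences from RefSeq (GRCm38.p6, 250 bases before to 50 after a start) were found for 75 of the genes, 98 windows in all. Searched on both strands for motifs none of which contains another, 18.4% of these windows held TATAAA, 12.2% CACGTG, 42.9% CCAAT and 5.10% TGACGTCA. Of the 18 windows with TATAAA, 4 are overlapping windows of Mir670hg, which are not independent. Over all 32851 windows the shares were 13.6%, 7.15%, 37.4% and 1.79%. Those windows were not limited to genes at 3 TPM or more, so the sets are unlike and the shares do not single out lincRNAs. The 5 windows with TGACGTCA, the palindrome to which CREB can bind, belong to Gas5, Gm3764, Mir9-3hg, C030037D09Rik and 1300002E11Rik, so a pair of miR-9 hosts is among them. The window of Mir9-3hg (chr7:79499776-79500075, plus strand) is shown with this match in capitals because that host differed most among those of miR-9. A match is a description of the letters and not a site.
Mir9-3hg promoter: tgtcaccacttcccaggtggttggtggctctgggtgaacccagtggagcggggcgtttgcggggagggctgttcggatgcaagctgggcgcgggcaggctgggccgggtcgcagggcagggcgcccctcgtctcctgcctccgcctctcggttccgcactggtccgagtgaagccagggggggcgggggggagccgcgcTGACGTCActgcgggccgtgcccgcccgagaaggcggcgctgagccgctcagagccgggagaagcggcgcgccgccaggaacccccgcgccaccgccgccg

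Several of the lincRNAs lay side by side. Within 50 kb of another were 20 of the 135, in 9 groups, among them Xist, Jpx and Ftx, and Gm27019, Lncpint and 2210408F21Rik on chromosome 6. Gm35040 starts 1639 bases downstream of Mir9-3hg on the same strand and had 10.2 TPM in replicate 2 against 8.20 TPM in replicate 1, a difference of 0.24 ± 0.07 (counting SE). Gm47204 and C030014I23Rik overlap on opposite strands and share 98.5% of the words of Gm47204. Only strand can tell apart their 175 and 107 counts, and 79 and 75 counts, and its use in counting is not given.

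The threshold of 3 TPM cut through a continuum. By the lower of the libraries, the 5 genes just inside were Gm12371, BC002059, 4930578M01Rik, Gm15411 and Gm44718, at 3 to 3.07 TPM, and the 5 just outside were B830012L14Rik, Gm6712, Gm45768, Ino80dos and Gm20063, at 2.95 to 2.99 TPM. A further 45 genes with a lincRNA transcript reached 3 TPM in 1 library only, and 3915 of the 6058 had 0 counts in both. The 12 members with fewer than 50 counts on average had a median effective length of 339.8 bases. Their log2 differences of -0.89 to 0.54 carry counting SEs of up to 0.76.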

How the data were processed

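Total RNA libraries of left cerebral cortex from 2 female mice were deposited as tables per gene and transcript on mm10 with GENCODE M21, per the readme text deposited beside them. The authors deposited expected counts (estimated counts, not all whole), TPM, each transcript's percent of its gene, and a score-like pair of credibility bounds, per the file headers. No source used here gives the aligner, quantifiers, versions or use of strand. Reads of a hybrid were assigned to the reference genome, so CAST/EiJ reads may be counted less. For log2 differences, the deposited expected counts were rounded and scaled by TMM (edgeR 4.0.16, prior count 1), and DESeq2 1.42.0 gave other size factors. The TPM of the second table were summed per gene. The counting SE treats counts as Poisson. Between the libraries chi-square per degree of freedom was 13.2 over 20162 genes, so they are not copies of one library. The spread between them thus exceeded Poisson counting, and the counting SEs understate it. Scripts used Python 3.11.15 and R 4.3.3. Genes were named if among the 20 highest, among the 10 most different each way, among the 5 most different between tables each way, or on a list. Hosts, partners, neighbours, shared-sequence examples and promoters outside that rule were chosen after their values were seen. The members and lists were chosen with earlier results of these data known.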

Additional observations from a re-analysis of the deposited data

How the results depend on the processing

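With 1 group of 2 animals no p-value can be had, and no result here separates animal from library. No paired analysis was possible because there is only 1 group. The number of lincRNAs was 326 at 1 TPM and 48 at 10 TPM, and between 98 and 195 under the other definitions. Requiring 1 library alone gave 144 to 171. The median TPM was 15.8 when rescaled over protein-coding and lincRNA genes and 8.54 with at least 50 counts, and 7.84 to 8.17 for the libraries singly. The share of all TPM, 1.94% on average, was 2.10% in the second table, 2.85% of counts and 0.659% without the rRNA-region genes, with 1.93% to 1.95% for the libraries singly. The part of it in the highest gene, 55.3% on average, was 46.0%, 67.5% and 43.8% under these settings, and 55.1% to 55.6% for the libraries singly. The 11 genes at least 2-fold apart between tables were 20 at 1.5-fold and 10 to 12 for the libraries singly, and the number with 1 leading transcript was 55 for either library, against 50 for both. The 8 lincRNAs higher in replicate 2 were 23 with spike-in scaling, 3 with at least 200 counts and 1 at 2-fold, and 6 to 10 otherwise. The count of lower ones was 0 throughout, except 2 with no minimum count (Gm44718 and Gm49768). The median log2 difference was 0.32 with spike-in scaling and 0.02 to 0.09 otherwise. Of 55 named lincRNAs, 33 moved by more than 1.96 counting SEs with spike-ins, 7 with library totals and 1 with DESeq2, and 4 of 52 with the second table, and no called one changed sign. The causes were not tested. Genes near 50 counts carry counting SEs above 0.2.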
